A study of Mus musculus with 10 samples.

Results

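The Zfhx, Tshz and nuclear factor I genes of the mouse are 10 genes for transcription factors: Zfhx2, Zfhx3 and Zfhx4, Tshz1, Tshz2 and Tshz3, and Nfia, Nfib, Nfic and Nfix. They were chosen by symbol through their Ensembl identifiers, and all 10 were found among the 25006 genes counted. Their RNA was measured in 10 neurons from the nucleus of the solitary tract (NTS), the brainstem nucleus in which visceral afferents end. Of these neurons, 5 were labelled as type 2 and 5 as type 1 by firing property. All 10 came from acute brainstem slices of 3-month-old C57BL/6 mice carrying LepRb-Cre; Halo-eYFP, so that cells in which the leptin receptor gene has driven Cre are yellow fluorescent, and the labels name no treatment. A Cre reporter stays on after recombination, and it therefore marks a history of leptin receptor expression rather than its level at the time of collection. Nuclear and cytoplasmic RNA of each neuron was drawn into a glass pipette and made into 1 library. The type 2 neurons are numbered 6-2, 10-1, 10-3, 9-2 and 9-4, and the type 1 neurons 1-1, 1-2, 4-3, 8-2 and 9-1. What the numbers stand for and what the firing types are is not explained in the labels, and no animal is named.

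The Zfhx proteins are very large and combine many zinc fingers with several homeodomains, the helical folds that read short AT-rich DNA. In the suprachiasmatic nucleus Zfhx3 sustains peptide genes of the circadian clock, and in the embryonic spinal cord Zfhx3 and the nuclear factor I (NFI) genes are switched on in successive waves of neurons, the NFI genes in those born later. The Tshz proteins are the mammalian relatives of Drosophila teashirt and act mainly as repressors through partners such as CtBP and histone deacetylases. NFI proteins bind DNA as dimers at a TTGGC palindrome and are best known for the start of gliogenesis and for the maturation of late-born neurons.

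Of the 10 members, 5 were at least 4-fold lower in type 2 than in type 1 neurons, namely Zfhx3, Zfhx4, Tshz3, Tshz1 and Nfic, and 0 were at least 4-fold higher. The difference is that of the mean log2(CPM + 1), where CPM is a gene's counts scaled by the total of the neuron's library, the usual CPM scale. Among the 9212 genes averaging at least 10 CPM over all neurons, 9.53% were at least 4-fold lower in type 2 and 16.1% at least 4-fold higher. Of the 8 members with such a mean, 5 were on the lower side, above the share of all genes. Each of these 5 averaged at most 4.05 CPM in type 2, so it reached that mean through its type 1 values. The members were also chosen with earlier results of these data known, so their share is a description only. Only Zfhx3 had all 5 type 2 neurons below all 5 type 1 neurons, and 0 members had the opposite order; over all genes these shares were 0.738% lower and 1.72% higher in type 2. Zfhx2, Tshz2 and Nfia differed by less than 4-fold, and Nfib and Nfix did not reach a mean of 10 CPM. A member was called detected in a neuron that had 10 CPM and 3 counts of it or more. Detected members numbered 3, 2, 1, 1 and 2 in the type 2 neurons and 6, 4, 8, 5 and 7 in the type 1 neurons, in the order given above. The share of all genes detected by this rule was not computed, so no result about the members is drawn from these numbers. Each type was treated as 1 sample because no animal is named. No test across neurons was made, and every SD below describes the spread between cells.

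**Figure D1:**
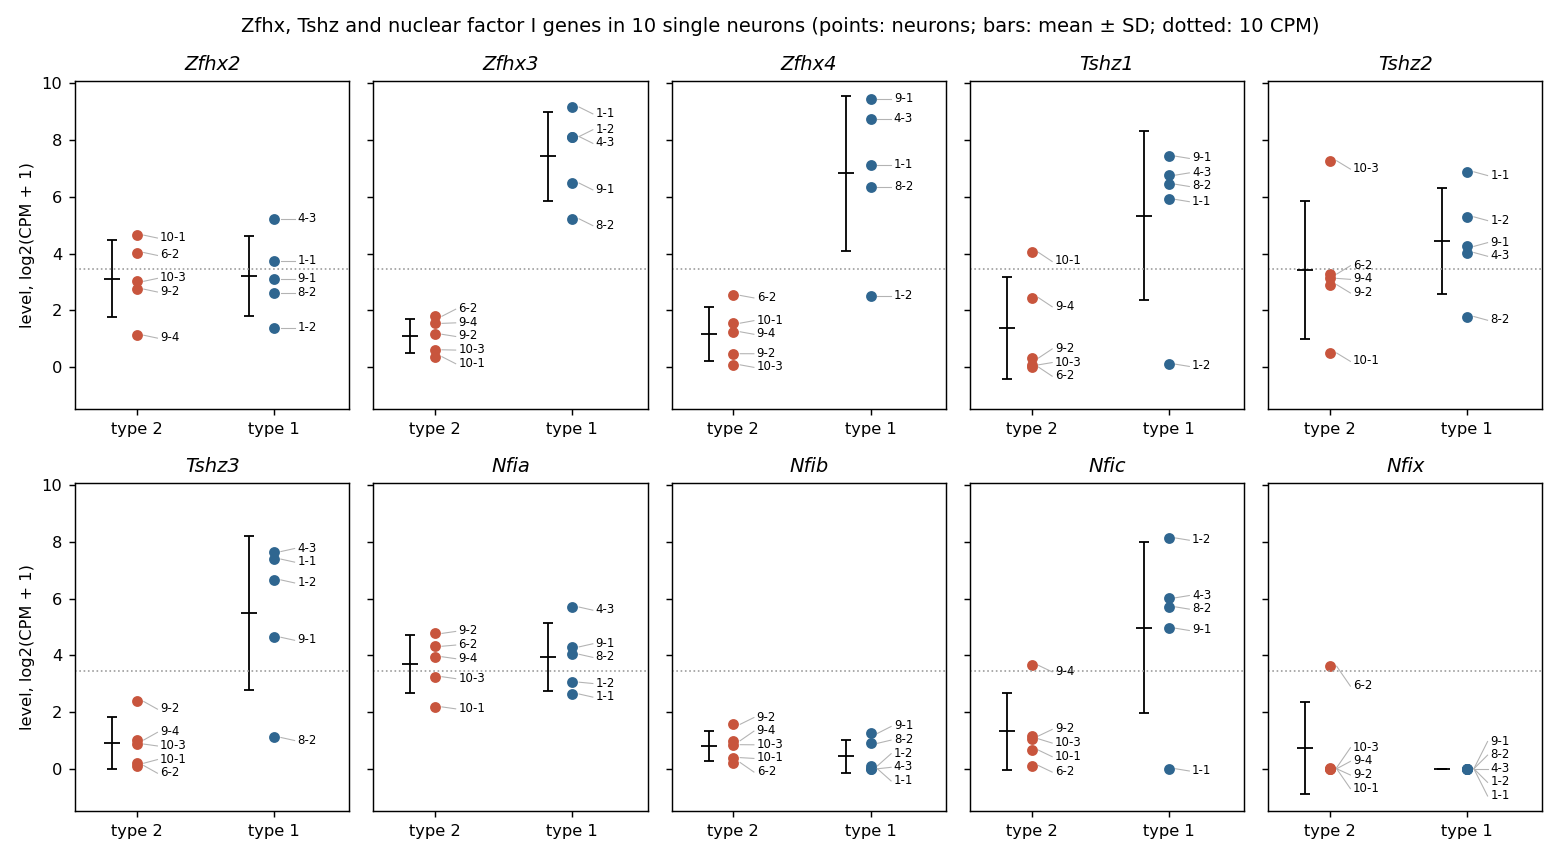
Level of each of the 10 members as log2(CPM + 1) on the vertical axis in the 5 type 2 neurons (left) and the 5 type 1 neurons (right), 1 labelled point per neuron, beside it the mean ± SD (n = 5 neurons), and a dotted line at 10 CPM. Zfhx3 is the member whose points do not overlap, from 0.288 to 2.46 CPM in type 2 and from 36.4 to 572 CPM in type 1.

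**Figure D2:**
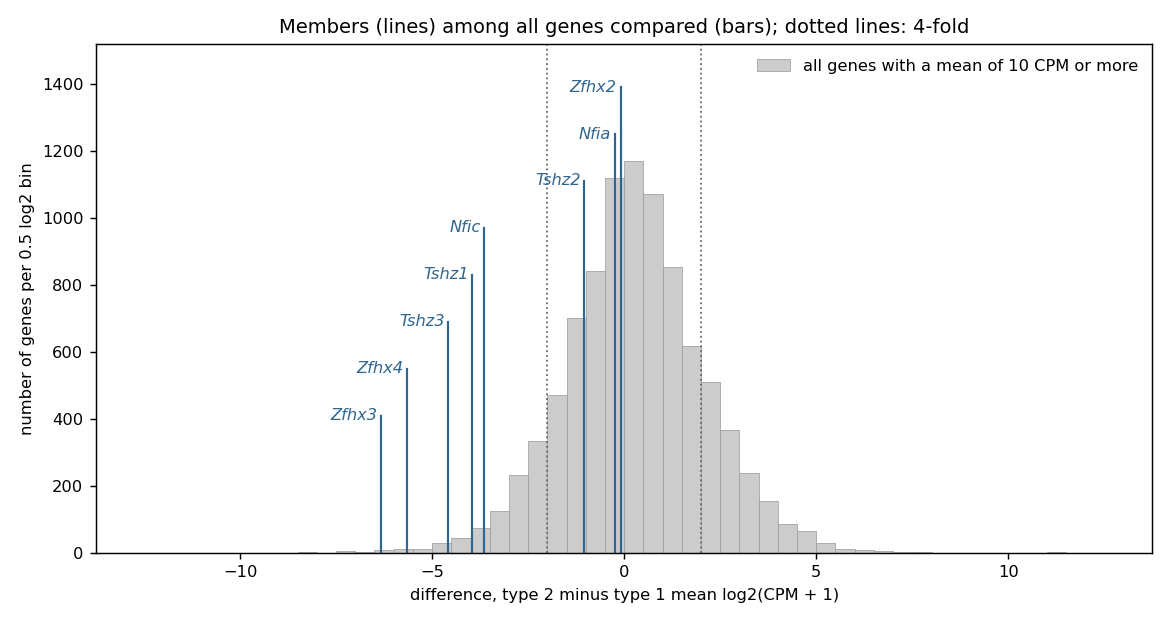
Number of genes (vertical axis) by difference, type 2 minus type 1, in mean log2(CPM + 1) (horizontal axis) for the 9212 genes averaging at least 10 CPM, with the 8 members among them marked by lines whose height has no meaning and dotted lines at a 4-fold difference. Zfhx3 at -6.33 and Zfhx4 at -5.66 lie in the far lower tail, and Zfhx2 at -0.09 lies near the all-gene median of 0.24.

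The libraries held between 9796799 and 41844825 counts, and the type 1 neurons 1-1, 1-2 and 4-3 and the type 2 neuron 6-2 were under 20000000 counts. Genes with any count numbered 9680 to 10953 in type 2 and 6879 to 10859 in type 1; the lowest 3 values were those of 1-1, 1-2 and 4-3. All 8 neuron marker genes were measured, and Snap25, a synaptic fusion protein, was at 2319 to 3123 CPM in type 2 and 1546 to 2885 CPM in type 1. Other neuron markers were less even. Rbfox3 differed by -3.56, with 0.246 to 54.6 CPM in type 2 and 35.1 to 141 CPM in type 1. Syt1 differed by 2.13, with 3.80 to 182 CPM in type 2 and 0 to 141 CPM in type 1. Stmn2 was higher in type 2 without overlap, at 1254 to 1745 CPM against 357 to 1147 CPM. Lepr itself was at 0.890 to 50.7 CPM in type 2 and at 1.15 to 122 CPM in type 1, so the reporter label was not matched by a steady Lepr level. Markers of other cells also differed: of 12 microglia markers, 11 were detected in 6-2 and 9-4 and 7 in 9-2, against at most 5 in any type 1 neuron. The 10 astrocyte markers summed to 1045 to 1775 CPM in type 2 and 150 to 673 CPM in type 1, mostly Aldoc, with Slc1a3 and Gjb6 at 0 counts in every library. Among them S100b went the other way, with a difference of -2.22. The 10 oligodendrocyte lineage markers summed to 39.2 to 220 CPM in type 2 and 2.00 to 1045 CPM in type 1, highest in 9-1. Other cells' RNA was thus not limited to type 2 libraries. The part of such RNA in the members' differences was not tested. Leaving out 6-2, 9-2 and 9-4 left differences of -6.94 for Zfhx3, -6.02 for Zfhx4, -4.96 for Tshz3, -3.27 for Tshz1 and -4.11 for Nfic.

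The promoter windows of Zfhx3, Tshz3 and Nfic, which were lower in type 2, are shown together with that of Nfia, which was near equal in the firing types, because they differ in CpG content. Each runs from 250 bases before to 50 bases after a RefSeq transcript start, on the GRCm38.p6 build and the strand of the gene, 5′ to 3′, with CpG dinucleotides in capitals. The Zfhx3 window is chr8:108714394-108714693 on the plus strand, the Tshz3 window chr7:36697868-36698167 on the plus strand, the Nfic window chr10:81427124-81427423 on the minus strand and the Nfia window chr4:97581693-97581992 on the plus strand.
Zfhx3: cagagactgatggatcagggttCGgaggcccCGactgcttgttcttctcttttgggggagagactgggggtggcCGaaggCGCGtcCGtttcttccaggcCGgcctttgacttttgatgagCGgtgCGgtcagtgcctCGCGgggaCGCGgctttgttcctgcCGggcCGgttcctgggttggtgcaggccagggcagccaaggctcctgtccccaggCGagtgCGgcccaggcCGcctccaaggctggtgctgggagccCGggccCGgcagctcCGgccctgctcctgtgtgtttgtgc
Tshz3: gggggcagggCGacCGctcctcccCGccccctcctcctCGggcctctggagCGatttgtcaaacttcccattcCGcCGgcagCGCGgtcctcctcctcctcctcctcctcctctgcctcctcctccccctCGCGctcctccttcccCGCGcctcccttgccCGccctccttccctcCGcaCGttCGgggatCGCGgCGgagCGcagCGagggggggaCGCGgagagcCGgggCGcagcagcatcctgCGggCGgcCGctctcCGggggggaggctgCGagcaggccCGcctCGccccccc
Nfic: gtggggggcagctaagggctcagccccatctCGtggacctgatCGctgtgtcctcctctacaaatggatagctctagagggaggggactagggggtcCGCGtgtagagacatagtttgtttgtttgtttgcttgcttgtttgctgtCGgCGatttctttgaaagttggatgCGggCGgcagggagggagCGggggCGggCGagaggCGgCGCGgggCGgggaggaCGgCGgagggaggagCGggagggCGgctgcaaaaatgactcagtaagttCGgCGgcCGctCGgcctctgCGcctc
Nfia: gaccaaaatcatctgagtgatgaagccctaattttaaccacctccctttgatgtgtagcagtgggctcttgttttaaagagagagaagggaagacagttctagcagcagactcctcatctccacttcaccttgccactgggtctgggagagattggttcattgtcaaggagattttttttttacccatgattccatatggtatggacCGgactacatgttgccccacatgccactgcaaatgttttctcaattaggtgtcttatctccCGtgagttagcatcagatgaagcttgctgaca

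The Tshz3 window had 33 CpG dinucleotides and 76.0% G and C, that of Nfic 24 and 63.0%, and that of Zfhx3 21 and 67.3%. All 3 exceeded the upper quartile of the 32817 windows of the RefSeq table, 20 CpG and 61.7%, whose medians were 7 and 52.7%. The Nfia window had 2 CpG and 44.7%, below the lower quartile of 3 and 45.7%. Of the other members with a window, Zfhx2 had 20 CpG and 57.3% G and C, Tshz2 had 2 CpG and the 4 windows of Nfix had 2 to 13. Zfhx2 was also near equal in the firing types, with a difference of -0.09, so the Nfia window does not stand for the near-equal members. Whether CpG content goes with the difference between types was not tested. Windows were matched for 7 of the 10 members, and Zfhx4, Tshz1 and Nfib were not matched. The RefSeq start of Zfhx3 lies 772000 bases downstream of the outermost GENCODE start of the gene and that of Nfic 28462 bases downstream, whereas that of Nfia lies 190791 bases upstream. The windows of Zfhx3, Nfic and Nfia thus show 1 annotated start each and need not be the start used in these neurons. Neither TAATTA, the core of many homeodomain sites and its own reverse complement, nor TTGGCA, the core of NFI sites searched on both strands, occurred in the 4 windows shown; over all windows they occurred in 5.30% and 14.1%.

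Zfhx3, a regulator of clock output in the suprachiasmatic nucleus, is a gene of 1018987 bases on the plus strand of chromosome 8 (GRCm38 107942644 to 108961630). It had 2.46, 0.288, 0.525, 1.23 and 1.91 CPM in type 2 neurons 6-2, 10-1, 10-3, 9-2 and 9-4, against 572, 278, 278, 36.4 and 88.5 CPM in type 1 neurons 1-1, 1-2, 4-3, 8-2 and 9-1. All type 1 neurons were high, 8-2 least, and the lowest of them lay far above the highest type 2 neuron. The difference was -6.33 on the log2 scale, rank 11 of 9212 from the most negative. In summed counts the type 2 level was 1.04 CPM (exact Poisson 95% interval 0.883 to 1.22) and the type 1 level 174 CPM (171 to 176), intervals that cover counting error only. Zfhx3 transcripts were not absent from type 2 neurons: each had between 12 and 60 counts.

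Within type 1, Zfhx3 was higher in the shallower libraries, with a mean of 376 CPM in the 3 under 20000000 counts and 62.4 CPM in the other 2. The difference between types was -4.94 among libraries above 20000000 counts and -6.68 among those below. Among neurons with first number 9, which alone occurs in each type, it was -5.14, with 2 type 2 neurons and 1 type 1 neuron. A part of depth in the size of the difference was not tested.

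**Figure D3:**
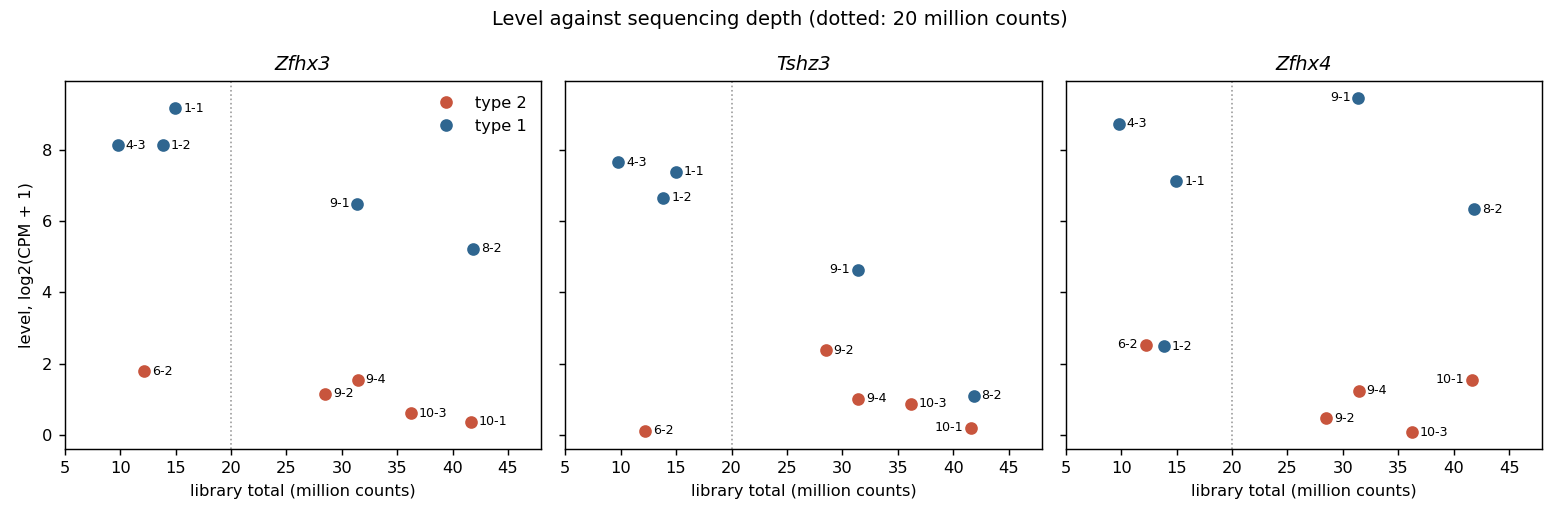
Level as log2(CPM + 1) (vertical axis) of Zfhx3, Tshz3 and Zfhx4 against library total in units of 1e6 counts (horizontal axis), 1 point per neuron, type 2 and type 1 in separate colours. In type 1 the Zfhx3 and Tshz3 points are lower to the right of the dotted line at 20000000 counts, where the mean CPM was 62.4 for Zfhx3 and 12.5 for Tshz3, while Zfhx4 averaged 392 CPM there.

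Zfhx4, the paralogue expressed in differentiating nerve and muscle, lies on the plus strand of chromosome 3 (5218526 to 5415857). It had 4.76, 1.92, 0.0552, 0.386 and 1.37 CPM in type 2 neurons 6-2, 10-1, 10-3, 9-2 and 9-4, against 138, 4.62, 426, 79.5 and 704 CPM in type 1 neurons 1-1, 1-2, 4-3, 8-2 and 9-1. Of the type 1 neurons 4 were high and 1-2 was as low as the type 2 neurons, and the types overlapped only because 6-2 slightly exceeded 1-2. Zfhx4 averaged 1.70 ± 1.87 CPM in type 2 against 271 ± 290 CPM in type 1 (SD, n = 5 each), a difference of -5.66 and rank 23 of 9212. Without 1-2 the difference was -6.74 and without 9-1 it was -5.00. It was -7.06 among libraries above 20000000 counts, -3.59 among those below and -8.61 among neurons with first number 9.

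Zfhx2, a paralogue in which changes alter pain sensing in mice and people, lies on the minus strand of chromosome 14 (55060262 to 55092324). It had 15.4, 24.1, 7.12, 5.72 and 1.18 CPM in type 2 neurons 6-2, 10-1, 10-3, 9-2 and 9-4, against 12.4, 1.59, 35.8, 5.09 and 7.65 CPM in type 1 neurons 1-1, 1-2, 4-3, 8-2 and 9-1. The ranges overlapped widely, and 2 neurons of each type reached 10 CPM. The difference was -0.09, and it changed sign to 0.08 with TMM-scaled library sizes, under which the all-gene median was 0.41 in place of 0.24. Of the 18166 exon bases of Zfhx2, 3255 are shared with the antisense gene Zfhx2os, whose counts were not used here. The strand option of the counting is not known, so reads of Zfhx2os cannot be told apart from those of Zfhx2.

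Summed over the 3 Zfhx genes, the type 2 neurons held 4.45 to 26.3 CPM (median 7.70) and the type 1 neurons 121 to 801 CPM (median 723). The family total did not overlap between the types. This is not separate from Zfhx3, which is part of the total and did not overlap by itself. The highest type 1 neuron was 1-1 for Zfhx3 and 9-1 for Zfhx4. Neuron 1-2 had most of its total as Zfhx3, and 9-1 most of it as Zfhx4.

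Tshz3, without which newborn mice cannot breathe, lies on the plus strand of chromosome 7 (36698118 to 36773553). It had 0.0820, 0.144, 0.828, 4.17 and 1.02 CPM in type 2 neurons 6-2, 10-1, 10-3, 9-2 and 9-4, against 167, 99.9, 201, 1.15 and 23.8 CPM in type 1 neurons 1-1, 1-2, 4-3, 8-2 and 9-1. It was high in 1-1, 1-2 and 4-3, intermediate in 9-1 and low in 8-2, which fell inside the type 2 range. Tshz3 averaged 1.25 ± 1.69 CPM in type 2 against 98.4 ± 86.8 CPM in type 1 (SD, n = 5 each), a difference of -4.58 and rank 64 of 9212. The 3 high neurons were the 3 type 1 libraries under 20000000 counts, where the mean was 156 CPM against 12.5 CPM in the other 2. The difference was -7.12 among libraries under 20000000 counts and -1.76 among those above, which is less than 4-fold, and a part of depth in it was not tested. It was -2.94 among neurons with first number 9 and -5.67 without 8-2.

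Tshz1, which olfactory bulb interneurons need to mature, lies on the minus strand of chromosome 18 (84011627 to 84087706). It had 0, 15.5, 0.0552, 0.245 and 4.45 CPM in type 2 neurons 6-2, 10-1, 10-3, 9-2 and 9-4, against 59.0, 0.0722, 108, 86.0 and 172 CPM in type 1 neurons 1-1, 1-2, 4-3, 8-2 and 9-1. Neuron 10-1 was the single type 2 neuron in which it was detected, and 1-2, with 1 count, the single type 1 neuron in which it was not. The 0 in 6-2 allows up to 0.246 CPM, the level of 3 counts there. The difference was -3.95, rank 115 of 9212, with 4.05 ± 6.66 CPM in type 2 against 84.9 ± 63.1 CPM in type 1 (SD, n = 5 each). It was -5.26 without 1-2, -4.62 without 10-1, -5.22 among libraries above 20000000 counts, -4.26 among those below and -6.05 among neurons with first number 9.

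Tshz2, known in cortex as a marker of near-projecting neurons of deep layers, lies on the plus strand of chromosome 2 (169633013 to 170071816). It had 8.69, 0.409, 153, 6.49 and 7.73 CPM in type 2 neurons 6-2, 10-1, 10-3, 9-2 and 9-4, against 117, 38.2, 15.4, 2.44 and 18.1 CPM in type 1 neurons 1-1, 1-2, 4-3, 8-2 and 9-1. A single type 2 neuron, 10-3, had the highest level of all 10, while 4 type 1 neurons reached 10 CPM. The sign of the difference depended on the summary: the mean log2(CPM + 1) differed by -1.04, but the summed counts gave 40.7 CPM in type 2 and 27.7 CPM in type 1. The difference was -1.999 without 10-3, -0.31 without 10-1, -0.43 without 1-1 and -1.70 without 8-2. Of its 7781 exon bases 5076 are shared with the antisense gene Gm26883, whose counts were not used here, so its value is uncertain.

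Summed over the 3 Tshz genes, the type 2 neurons held 8.77 to 154 CPM (median 13.2) and the type 1 neurons 89.6 to 343 CPM (median 214). The type 2 range reached into that of type 1 only through 10-3 and its Tshz2, as the other 4 type 2 neurons had totals of at most 16.0 CPM.

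Nfic, the NFI gene that tooth root formation depends on, lies on the minus strand of chromosome 10 (81396186 to 81455635). It had 0.0820, 0.577, 1.08, 1.23 and 11.5 CPM in type 2 neurons 6-2, 10-1, 10-3, 9-2 and 9-4, against 0, 279.8, 64.2, 51.1 and 30.0 CPM in type 1 neurons 1-1, 1-2, 4-3, 8-2 and 9-1. It was above every type 2 neuron in 4 type 1 neurons and had no count in 1-1, where 3 counts would be 0.200 CPM. Nfic averaged 2.90 ± 4.84 CPM in type 2 against 85.0 ± 112 CPM in type 1 (SD, n = 5 each), a difference of -3.64 and rank 163 of 9212. It was -4.88 without 1-1 and -2.85 without 1-2. It was -3.70 among libraries above 20000000 counts, -4.61 among those below and -2.55 among neurons with first number 9.

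Nfia, which starts gliogenesis in the embryonic spinal cord, lies on the plus strand of chromosome 4 (97772734 to 98118874). It had 18.9, 3.53, 8.48, 26.3 and 14.4 CPM in type 2 neurons 6-2, 10-1, 10-3, 9-2 and 9-4, against 5.21, 7.29, 50.9, 15.4 and 18.6 CPM in type 1 neurons 1-1, 1-2, 4-3, 8-2 and 9-1. The ranges overlapped, with 3 neurons of each type at 10 CPM or more. The difference was -0.25, and across 23 alternative settings it was negative in 18 and positive in 5.

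Nfib and Nfix, which with Nfia mark later-born spinal neurons, were the lowest of the members by mean CPM over the 10 neurons. Nfib, on the minus strand of chromosome 4 (82290173 to 82705750), was at 0.164 to 1.96 CPM in type 2 and at 0 to 1.37 CPM in type 1, and no neuron reached 10 CPM. Nfix, on the minus strand of chromosome 8 (84699876 to 84800344), had 137 counts or 11.2 CPM in 6-2, 1 count in 10-3 and 0 in the other 8 neurons. The 0 of 111861521 type 1 counts allows 0.0268 CPM over the group, so that the summed type 2 level of 0.920 CPM was at least 34.3-fold higher. That bound rests on 6-2 alone, and without it the difference in mean log2(CPM + 1) was 0.01 where it had been 0.73. Summed over the 4 NFI genes, the type 2 neurons held 4.42 to 30.4 CPM (median 26.9). The type 1 neurons held 5.21 to 287 CPM (median 67.4), so this family total overlapped between the types.

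Levels of different members were compared per kilobase of exon. In type 2 the order by median CPM per kilobase was Nfia at 1.33, Tshz2 at 0.993, Zfhx2 at 0.392, Nfic at 0.162 and Tshz3 at 0.152, followed by Zfhx4, Zfhx3, Nfib and Tshz1 between 0.0869 and 0.0420 and Nfix at 0. In type 1 the order was Tshz3 at 18.3, Tshz1 at 14.7, Zfhx3 at 13.3, Zfhx4 at 8.80, Nfic at 7.71, Tshz2 at 2.32, Nfia at 1.41 and Zfhx2 at 0.421, followed by Nfib at 0.00482 and Nfix at 0. In both types every member's range of values overlapped that of the next in the order, so neighbours were not separated beyond the spread between neurons. The 5 members that were at least 4-fold lower in type 2 were the 5 highest per kilobase in type 1. This is not a separate result, because the same type 1 values entered the difference.

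Among pairs of members, picked here after their values were seen, the highest pooled correlations joined a Zfhx with a Tshz gene. Over the 10 neurons the correlation of log2(CPM + 1) was 0.91 for Zfhx3 with Tshz3, and it was 0.06 within type 2 and 0.95 within type 1 (n = 5 each). For Zfhx4 with Tshz1 it was 0.88 over 10 neurons, 0.20 within type 2 and 0.94 within type 1. Zfhx3 with Zfhx4 gave 0.78 over 10 neurons but 0.52 within type 2 and -0.15 within type 1, so the pooled value goes with the difference between types. The Zfhx3 and Tshz3 pair was high in 1-1, 1-2 and 4-3, the type 1 libraries under 20000000 counts. The Zfhx4 and Tshz1 pair was highest in 9-1 and lowest of type 1 in 1-2. Within type 1, log2(CPM + 1) correlated with the log of the library total at -0.87 for Zfhx3 and -0.93 for Tshz3. For Zfhx4 and Tshz1 these values were 0.15 and 0.35. A part of depth in the correlations between members was not tested. Each neuron is 1 library with its own depth, and these values are descriptions of 10 libraries.

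**Figure D4:**
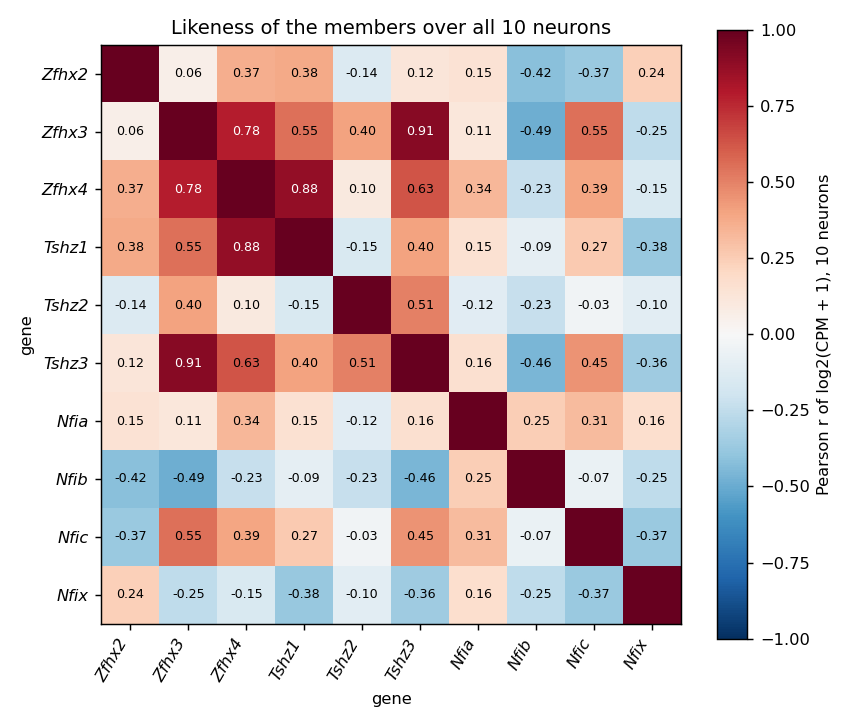
Pearson correlation of log2(CPM + 1) between members over the 10 neurons, each row and column a member and the number in each cell the correlation. Zfhx3 with Tshz3 at 0.91 and Zfhx4 with Tshz1 at 0.88 are among the highest; these pooled values include the difference between the firing types.

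Among 8810 named genes averaging at least 10 CPM, those whose pattern was most like Zfhx3 over the 10 neurons were Crtac1, a matrix protein gene, with a Pearson correlation of 0.98, Ttc39c at 0.97 and the homeobox gene Irx2 at 0.96. Each had at most 0.553 CPM in type 2 and at least 62.2 CPM in type 1. Most like Tshz3 were Slit1, an axon guidance ligand, at 0.96, the kainate receptor gene Grik1 at 0.95 and Fkbp5, a glucocorticoid-induced chaperone gene, at 0.92. For Zfhx4 they were Eif2d at 0.97, Cdc7 at 0.95 and Hs6st2 at 0.93, and for Tshz1 they were Syt17 at 0.94, Scrn1 at 0.92 and Hs6st2 at 0.92. Hs6st2, a heparan sulfate modifying enzyme gene, was near both Zfhx4 and Tshz1, which themselves correlated over the 10 neurons. Within type 1 it correlated with Zfhx4 and Tshz1 at 0.90 and 0.95, and within type 2 at 0.02 and 0.44. Nfic was most like Slc7a6os at 0.98, Col11a1 at 0.97 and Polr3e at 0.96, all with a 0 in at least 1 type 1 neuron. Zfhx2 was most like Iqsec1 at 0.93, Ptbp1 at 0.88 and Itgb1 at 0.87, Tshz2 was most like Ryr2, Nsg1 and Chd8 at 0.89 to 0.87, and Nfia was most like Pdss1, Phf6 and Clpx at 0.91. The highest of 8810 correlations over 10 points is large for any gene, and the values are given as a description only. They also include the difference between types. With Zfhx3, Crtac1, Ttc39c and Irx2 correlated at 0.06, -0.04 and -0.59 within type 2 and at 0.81, 0.72 and 0.53 within type 1. With Tshz3, Slit1 and Grik1 correlated at -0.17 and -0.24 within type 2 and at 0.97 and 0.93 within type 1.

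Other genes of the zinc finger homeobox class were divided in direction. Of 8 such genes 6 reached a mean of 10 CPM, 3 lower and 3 higher in type 2, with a median difference of -0.05 against 0.24 over all genes. Zeb1, a repressor of epithelial genes, differed by -3.25, with 13.8 ± 27.1 CPM in type 2 against 58.1 ± 66.7 CPM in type 1 (SD, n = 5 each). Its relative Zeb2, which acts in neuron and glial differentiation, differed by 4.88 the other way, with 66.0, 39.4, 3.89, 39.1 and 46.4 CPM in type 2 neurons 6-2, 10-1, 10-3, 9-2 and 9-4 and at most 0.0956 CPM in any type 1 neuron. The firing types did not overlap for Zeb2. Microglia also express Zeb2, and of the 12 microglia markers 11 were detected in 6-2 and 9-4, 7 in 9-2, 1 in 10-3 and 0 in 10-1; the part of microglial RNA in the Zeb2 difference was not tested.

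Among 12 temporal order genes of hindbrain and spinal neurons, in which Zfhx3 and the NFI genes take their places, only Tcf4 at 2.00 and Nr6a1 at 1.96 reached a mean of 10 CPM, both higher in type 2 and neither past 4-fold. Onecut1 and Neurod6 had 0 counts in all neurons. All 6 corepressor partners of Tshz proteins were measured and 0 were past 4-fold, with 3 lower and 3 higher and a median of -0.30. The largest were Hdac2, a histone deacetylase gene, at 1.25, and Set, a histone chaperone gene, at -1.05. Apbb1, a partner of Tshz3, was at 433 to 1132 CPM in type 2 and 267 to 884 CPM in type 1, and so was present where Tshz3 itself was near 0.

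Of 8 genes that depend on Zfhx3 in the suprachiasmatic nucleus, 5 had 0 counts in every neuron, among them the peptide genes Vip, Avp and Prok2. Rora, a nuclear receptor gene, was past 4-fold and higher in type 2 at 3.16, with 25.7 ± 28.9 CPM in type 2 against 0.0574 ± 0.0855 CPM in type 1 (SD, n = 5 each). Grp, a peptide gene, differed by -1.02 and rested on 8-2, which had 319 CPM. Of 4 NFI targets in cerebellar granule neurons 3 reached 10 CPM, with Cntn2, a cell adhesion gene, at 2.01 and Cdh2 at -0.69. Of 6 NFI targets in astroglia only Mmd2 did, with a difference of 1.39 that came from 120 CPM in 9-4, while Fabp7 and Slc1a3 had 0 counts. Each list held genes of both signs or too few genes to describe a direction.

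Of 18 zinc finger factors of neuron identity, 6 reached 10 CPM, with 3 past 4-fold lower and 2 past 4-fold higher in type 2. Ebf1, a factor of neuronal differentiation, had 10.3 ± 17.3 CPM in type 2 and 276 ± 51.2 CPM in type 1, a difference of -5.62. Bcl11b, a subtype regulator in cortex and spinal cord, had 111 ± 57.1 CPM in type 2 and 0.662 ± 0.892 CPM in type 1, a difference of 5.76. Neither overlapped between types, and they ran in opposite directions. Of 11 hindbrain lineage factors 2 reached 10 CPM, Lhx5 at 6.11 and Lhx1 at 2.40. Lhx5, a LIM homeobox gene, had 96.1 ± 72.9 CPM in type 2 and 0.0335 ± 0.0466 CPM in type 1, without overlap and opposite in direction to Zfhx3.

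**Figure D5:**
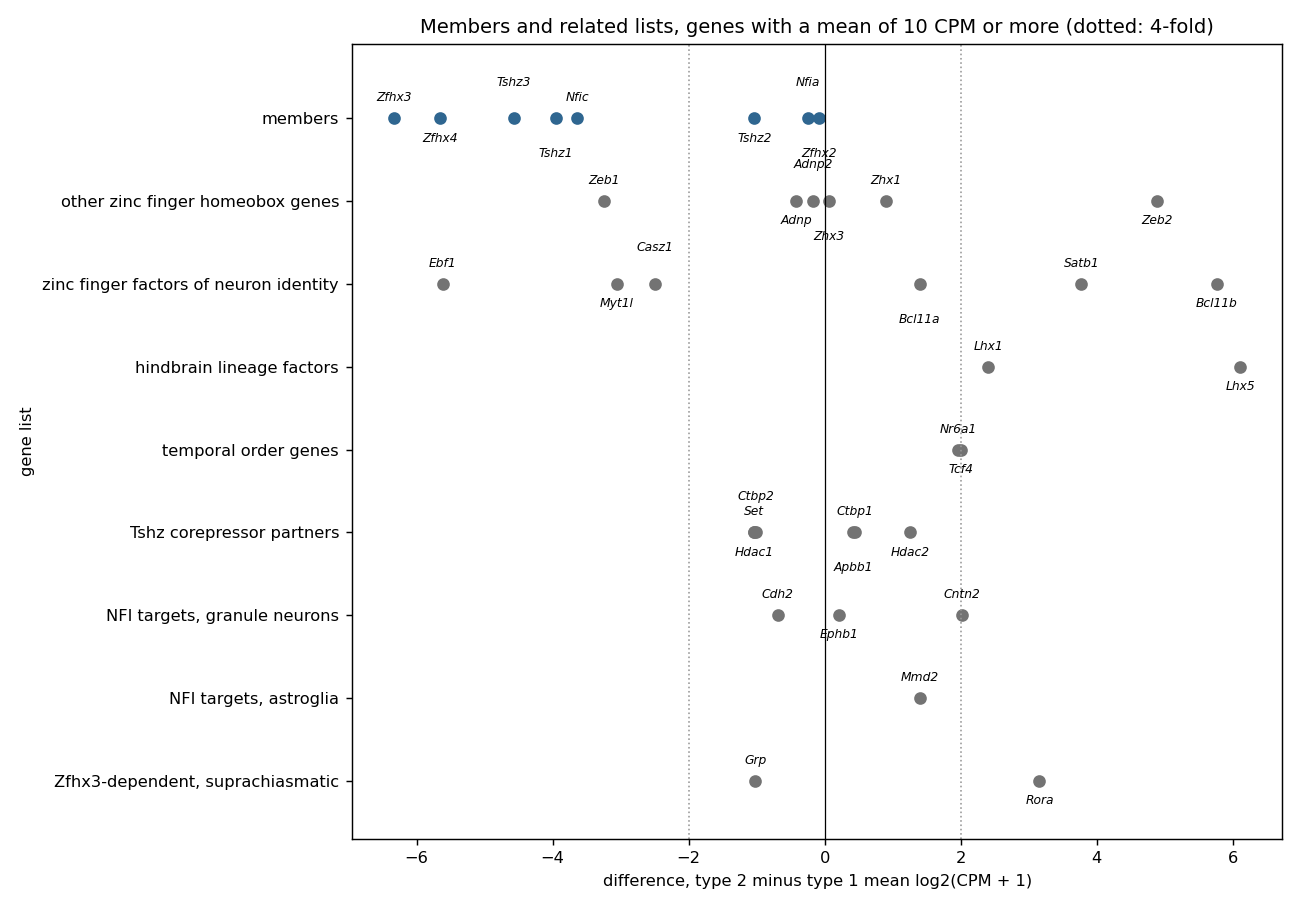
Difference in mean log2(CPM + 1), type 2 minus type 1 (horizontal axis) for the members and 8 related gene lists (vertical axis), 1 point per gene averaging at least 10 CPM and dotted lines at a 4-fold difference. The members extend from -6.33 for Zfhx3 to -0.09 for Zfhx2, whereas the other zinc finger homeobox genes extend from -3.25 for Zeb1 to 4.88 for Zeb2.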

How the data were processed

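The deposited files hold whole-number counts of reads per gene, 1 file per neuron, per the file headers and the values, with 25006 Ensembl identifiers, no normalization and no molecular identifiers. Per the submitters' processing notes, cutadapt 1.13, STAR, HTSeq 0.6.1p1 and DESeq2 were used with the mm10 build; the sources used here state neither their order nor the annotation, strand option or amplification. Identifiers were matched to symbols for 24942 genes, with positions from GENCODE M21 on GRCm38. CPM was computed from each library's total, and levels are log2(CPM + 1). Means of type 2 and type 1 neurons were subtracted, and a difference of 2 or more in size was counted as 4-fold. No model was fitted and no p-value computed. Poisson intervals and the 3-count limit cover counting error only, since reads without molecular identifiers are not independent molecules. No pair of libraries was a copy (over 45 pairs the lowest chi-square divided by its degrees of freedom was 559).

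The members and lists were chosen with earlier results of these data known. The genes named are the 10 members, the 2 genes with the largest difference in each list, the 3 genes most correlated with each member detected in at least 3 neurons, and label markers; others are given as examples of a count, and 1 listed gene is not reported here. The alternatives were other pseudocounts, TMM scaling (edgeR 4.0.16), other totals, thinning, medians, ratios, subsets of libraries and leaving out each neuron. The difference calculation was also run on simulated counts, drawn at the genes' means and library depths with a spread between neurons that was set in advance. That run checks the calculation only and says nothing about the members. Python 3.11.15, numpy 2.4.6, pandas 2.3.3 and R 4.3.3 were used.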

Additional observations from a re-analysis of the deposited data

Results flagged for a closer look

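In 2 of 20 groups of 5 neurons, 10 members in 2 types, a single neuron lay far from the other 4 on the log2(CPM + 1) scale. The limit was Dixon's 95% critical value, which is set so that chance marks about 1 group in 20. Tshz1 in the type 1 neuron 1-2 was at 0.0722 CPM, a single count, where the other 4 type 1 neurons had 59.0 to 172 CPM. Nfix in the type 2 neuron 6-2 was at 11.2 CPM, where the other 4 type 2 neurons had at most 0.0276 CPM. Neuron 6-2 also carried 11 of 12 microglia markers, and whether these cells' RNA contributed to the Nfix counts was not tested.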

How the results depend on the processing

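Over 23 alternatives each, Zfhx3, Zfhx4, Tshz1 and Nfic stayed lower in type 2 by at least 4-fold in 23, and Tshz3 in 22, the exception being -1.76 in libraries above 20000000 counts. The Zfhx3 difference was -4.04 with a pseudocount of 10, -5.14 among neurons with first number 9 and -4.94 in libraries above 20000000 counts; without single neurons it was -6.88 to -5.90.

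Among the 8 members averaging at least 10 CPM over all neurons, those past 4-fold and lower numbered 4 to 6, and 0 were higher. Nfix, which is below that mean, differed by 3.61 among libraries under 20000000 counts, with 6-2 as the only type 2 library. The share of all genes past 4-fold and lower, 9.53% over all neurons, also moved: it was 18.9% with first number 9 only, 17.1% in libraries above and 15.2% in those under 20000000 counts, 18.4% without 6-2, 9-2 and 9-4, 2.05% with a pseudocount of 10 and 6.35% with no filter on level.

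Members with no overlap and lower, 1 over all neurons, numbered 7 with first number 9 only, where 32.8% of all genes had that order between 2 type 2 neurons and 1 type 1 neuron. They numbered 4 in libraries above 20000000 counts (8.71% of all genes), 4 in those under it (11.6%), and 3 without 6-2, 9-2 and 9-4 (4.03%). They numbered 2 without 4-3 and 8-2, whose files have Windows line ends, a choice made after seeing the data (2.62%), and 1 to 3 without single neurons (0.955% to 1.39%).

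No paired analysis was possible because the types share no replicate number and only 1 first number, 9, and no test was made. A count of 0 allows up to 0.0717 to 0.306 CPM, depending on the library.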
